A study of Mus musculus with 27 samples.

Results

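White fat stores energy by taking fatty acids from blood lipoproteins and binding them to glycerol as triglyceride, and 10 genes of this route were followed in epididymal adipose tissue (EAT) of mice fed 3 diets. They were chosen for their place in the pathway and matched by symbol in the annotation of the array's probe sets, the groups of oligonucleotides that each read 1 transcript. All 10 were measured, among 18193 genes in all. For each gene the probe set that matched only that gene and had the highest mean over the 27 arrays was used. The mice were male C57BL/6J, 5 weeks old on arrival, and ate their diet for 18 weeks after 1 week of acclimatization. WQ mice ate a Western diet, high in fat, sucrose and cholesterol, with 0.05% quercetin, a plant flavonol; WD mice ate the same Western diet without it; control mice ate the purified AIN93G diet. Each group held 9 mice with 1 array each. The mice were kept 3 to a cage and the cages are not given, so mice of 1 group may not be independent. The p-values set each difference against the spread between these mice. The test across all genes, limma, took that spread from the 3 diets together.

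Lipoprotein lipase (LPL), made by adipocytes, is carried by GPIHBP1 to the inner face of capillaries, where it splits triglyceride of lipoproteins into fatty acids. CD36 helps these enter the adipocyte and FABP4 binds them inside it. Glycerol 3-phosphate, made in part from pyruvate through the enzyme encoded by Pck1, then receives acyl chains in successive steps catalysed by GPAM and AGPAT2, loses its phosphate to lipin 1, and receives the last acyl chain from DGAT1 or DGAT2.

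Values are log2 signals after quantile normalization, which gives every array the same distribution of signals, and each difference is that of the diet named first minus the other. The adipocyte marker Adipoq, which encodes adiponectin, lay between 13.29 and 13.54 on all arrays, while Alb, which encodes the albumin of liver, ranged from 5.74 to 13.13. Over 12 macrophage markers the mean signal ranged from 7.71 to 9.83 in WQ mice, from 8.82 to 10.34 in WD mice and from 7.33 to 8.94 in control mice. WD mice exceeded control mice by 1.82 (exact two-sided permutation test, n = 9 each, adjusted p = 0.0022 over 27 tests), and all 12 markers were higher by the test across all genes. The macrophage mean differed by 0.93 in WQ against control mice and by -0.89 in WQ against WD mice (exact permutation adjusted p = 0.058 for each). The mean of 8 adipocyte markers ranged from 11.75 to 12.08 in WQ, from 11.63 to 12.01 in WD and from 11.46 to 12.22 in control mice, and no comparison of it passed (adjusted exact permutation p = 0.33 to 0.76). In WD against control mice 7 of the 8 had negative differences and 1 was positive. Only Slc2a4 was lower there by the test across all genes (log2 fold change -0.70, limma adjusted p = 0.0019). The mean of 6 markers of mesothelium, the cell layer that covers the fat pad, was 4.35 in WQ, 4.58 in WD and 6.13 in control mice. It was lower by 1.78 in WQ than in control mice (difference -1.78, exact permutation adjusted p = 0.0083) and differed by -1.55 in WD against control mice (exact permutation adjusted p = 0.058), and 1 of its 6 markers was lower in each comparison by the test across all genes. The mean of 8 endothelial markers was 9.08 in WQ, 8.97 in WD and 9.10 in control mice. No comparison of the endothelial mean passed (exact permutation adjusted p = 0.43 to 0.95). By the test across all genes, 1 of the 8, Kdr, was lower in WD than in control mice (log2 fold change -0.51, limma adjusted p = 0.021). Transcripts of other tissues were high on single arrays. The mean of 7 testis markers was 12.72 on control replicate 6 against at most 7.02 on the other control arrays. Arrays that stood more than 2 log2 units above the median of all arrays in testis, lymph node or smooth muscle markers numbered 3 in WQ, 1 in WD and 5 in control mice, and in liver markers 4 in WQ, 4 in WD and 2 in control mice. In bulk tissue, fewer cells of a type and less RNA per cell cannot be told apart.

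On the probe sets used, only Agpat2 of the 10 genes passed the test between diets, and it was higher on both Western diets than on the control diet. Dimmer probe sets of Fabp4 and Dgat1 passed as lower in WD than in control mice, as given below. In WQ mice against WD mice, 0 of 10 genes were higher and 0 lower by limma (adjusted p under 0.05 over 18193 genes), against 0.253% of all genes higher and 0.0770% lower. At an unadjusted p under 0.05 there were 3, Gpihbp1, Gpam and Pck1, each higher in WQ mice, while 2496 of all genes reached that level. In WD against control mice 1 of 10 was higher and 0 lower, against 11.3% of all genes higher and 6.44% lower, a share of members near that of all genes. In WQ against control mice 1 was higher and 0 lower, against 5.00% and 1.65% of all genes. The median log2 fold change of the 10 genes was 0.10 in WQ against WD mice, where that of all genes was 0.02. It was -0.03 in WD against control mice and 0.05 in WQ against control mice, where all genes had medians of -1.84e-05 and 0.03. No gene of the 10 had 9 mice of 1 diet apart from the 9 of another, which 0.269% of all genes did in WQ against WD mice, 1.30% in WD against control mice and 0.253% in WQ against control mice. The 3 comparisons share groups of mice, so their values are set side by side and are not independent.

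**Figure D1:**
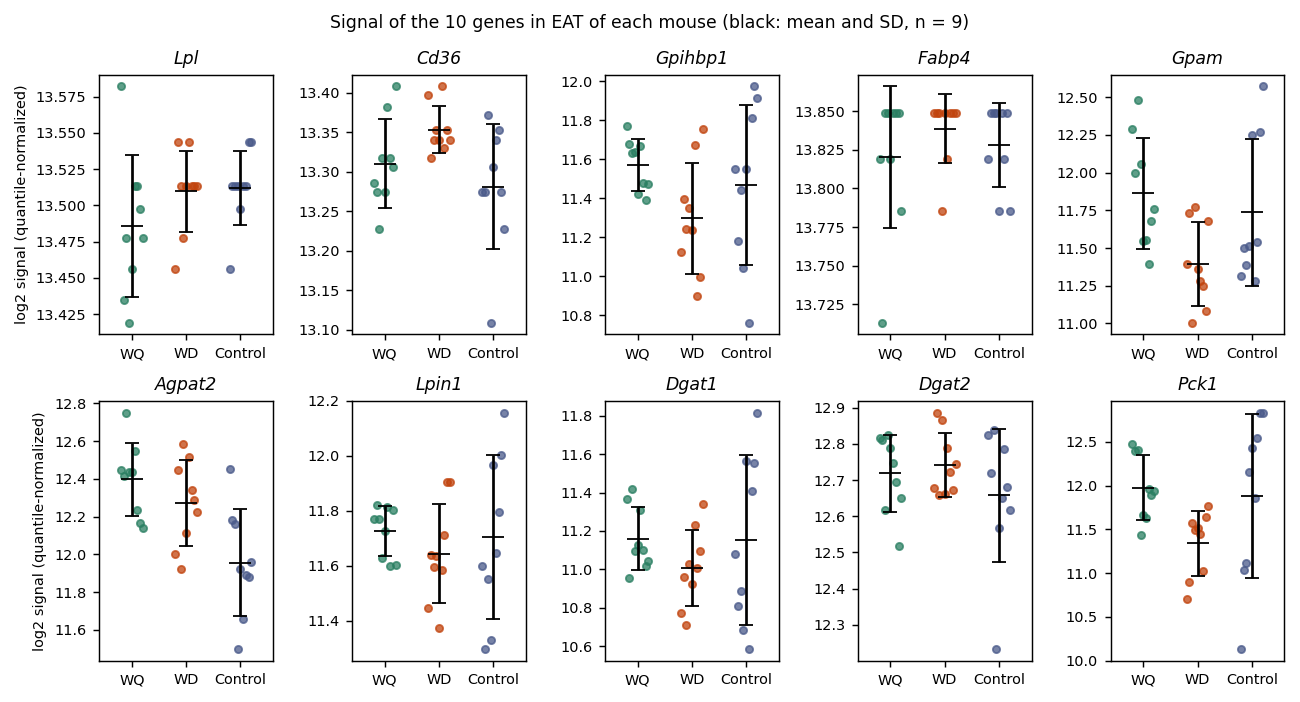
Log2 signal (y axis, quantile-normalized) of the 10 genes in each mouse of the WQ, WD and Control diets (x axis), with 1 point per mouse and the mean and SD of 9 mice in black; each panel has its own scale. Agpat2 has its lowest mean on the control diet, Pck1 and Gpam have theirs on WD, and the Fabp4 points lie on 4 values at the top of the scale.

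Among the genes of fatty acid uptake, Lpl (probe set 1415904_at) had a lowest, median and highest log2 signal of 13.42, 13.48 and 13.58 in WQ mice, of 13.46, 13.51 and 13.54 in WD mice and of 13.46, 13.51 and 13.54 in control mice. The diets overlapped fully, and the differences were -0.02 in WQ against WD mice (95% CI -0.10 to 0.05) and -0.0022 in WD against control mice (95% CI -0.08 to 0.07). The Lpl signal lay among the brightest of the array in every mouse, with 8 distinct normalized values over 27 arrays, so the scaling left it little room to vary. As deposited, before scaling, the Lpl signal averaged 11585 ± 505 in WQ, 11330 ± 276 in WD and 11907 ± 586 in control mice (SD, n = 9 each), ranges that again overlapped.

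Gpihbp1 (1453022_at), the capillary anchor of LPL, had a lowest, median and highest signal of 11.39, 11.63 and 11.77 in WQ mice, of 10.90, 11.24 and 11.75 in WD mice and of 10.76, 11.55 and 11.97 in control mice. All 9 WQ mice lay above the WD median, and 6 of 9 WD mice lay below every WQ mouse. The difference was 0.28 in WQ against WD mice (SE 0.13, limma adjusted p = 0.36) and -0.17 in WD against control mice (SE 0.13, adjusted p = 0.41). Control mice spread most, with an SD of 0.41 against 0.13 in WQ and 0.28 in WD mice, and control replicate 6, the array with testis transcripts, was the lowest of all.

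Cd36 (1450883_a_at), the fatty acid translocase, had values of 13.23, 13.31 and 13.41 in WQ mice, of 13.32, 13.34 and 13.41 in WD mice and of 13.11, 13.27 and 13.37 in control mice. Of the 9 control mice, 6 lay below every WD mouse, and so did 5 of 9 WQ mice. Cd36 differed by -0.04 in WQ against WD mice (adjusted p = 0.73) and by 0.07 in WD against control mice (adjusted p = 0.25). This probe set too was near the top of the array, with 13 distinct values. A dimmer Cd36 probe set (1450884_at) had deposited signals of 3932 ± 636 in WQ, 3273 ± 350 in WD and 3085 ± 455 in control mice (SD, n = 9 each). Its log2 difference in WQ against control mice was 0.26 (adjusted p = 0.091 over 45037 probe sets).

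Fabp4 (1417023_a_at), the main fatty acid binding protein of adipocytes, was the gene where the choice of probe set mattered most. On the brightest probe set the normalized signal held the array's highest value in 17 of 27 mice and took 4 distinct values in all, with medians of 13.85 on each diet, so the difference of 0.01 in WD against control mice (95% CI -0.07 to 0.09) has little range to move in. As deposited, that probe set averaged 14882 ± 1058 in WQ, 13809 ± 582 in WD and 15039 ± 997 in control mice (SD, n = 9 each), and without scaling the log2 difference in WD against control mice was -0.12 (adjusted p = 0.29). On the dimmest probe set (1425809_at) the deposited signal was 1166, 1961 and 3131 (lowest, median and highest) in WQ mice, 934, 1561 and 2397 in WD mice and 1614, 2914 and 4797 in control mice. It fell by 1.01 in WD against control mice on the normalized log2 scale (SE 0.23, adjusted p = 0.0039 over 45037 probe sets). The next dimmest Fabp4 probe set (1424155_at) fell by 0.49 (SE 0.15, adjusted p = 0.035), and the second brightest (1451263_a_at) differed by -0.12 (adjusted p = 0.36). In WQ against WD mice the 3 dimmer Fabp4 probe sets differed by 0.37, 0.26 and 0.14 from the dimmest up, and none passed (adjusted p = 0.57, 0.53 and 0.50). The mean of all 4 Fabp4 probe sets was lower by 0.40 in WD than in control mice (log2 fold change -0.40, adjusted p = 0.0099). The cause of the disagreement between probe sets was not tested.

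**Figure D2:**
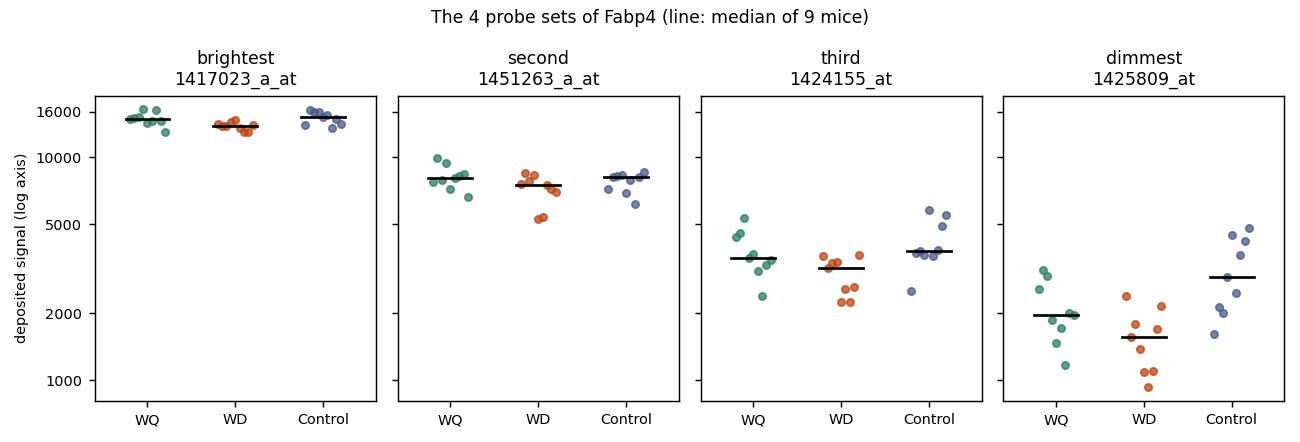
Deposited signal (y axis, log scale) of the 4 Fabp4 probe sets, brightest to dimmest from left to right, in WQ, WD and Control mice (x axis), with 1 point per mouse and a line at the median of 9 mice. The brightest lies between 12926 and 16382 in every mouse, while the dimmest has medians of 1961 in WQ, 1561 in WD and 2914 in control mice.

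Pck1 (1423439_at), which encodes the cytosolic phosphoenolpyruvate carboxykinase that feeds glycerol 3-phosphate synthesis in fat, showed the greatest difference of the 10 genes between WQ and WD mice. The lowest, median and highest signals were 11.44, 11.94 and 12.47 in WQ mice, 10.71, 11.49 and 11.77 in WD mice and 10.13, 12.16 and 12.83 in control mice. Of the 9 WQ mice, 6 lay above every WD mouse, and 6 of 9 control mice did so too. Pck1 differed by 0.64 in WQ against WD mice, a fold of 1.56 (SE 0.27, 95% CI 0.08 to 1.19, adjusted p = 0.28), and by -0.54 in WD against control mice (SE 0.27, 95% CI -1.10 to 0.02, adjusted p = 0.18). Neither passed the test. The WQ and control means were 11.98 ± 0.37 and 11.88 ± 0.93 (SD, n = 9 each), a difference of 0.10 with a 95% CI of -0.46 to 0.65. Control replicate 1 had the lowest Pck1 signal of all mice and was 1 of the 2 control arrays high in liver markers. The other such control array, replicate 4, had a Pck1 signal of 12.16, the control median. Without control replicate 1 the difference in WD against control mice was -0.76 and passed (limma adjusted p = 0.018). In the other 26 fits that each left out 1 mouse it did not pass. Nor did it pass without all arrays high in liver markers, where 0 of the 10 genes were lower.

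Gpam (1419499_at), the mitochondrial acyltransferase of the first step, had values of 11.39, 11.76 and 12.48 in WQ mice, of 11.00, 11.36 and 11.77 in WD mice and of 11.28, 11.52 and 12.57 in control mice. All 9 WQ mice lay above the WD median, 4 of them above every WD mouse, and 5 of 9 WD mice lay below every WQ mouse. The difference was 0.47 in WQ against WD mice, a fold of 1.38 (SE 0.17, 95% CI 0.12 to 0.82, adjusted p = 0.19), and -0.34 in WD against control mice (SE 0.17, adjusted p = 0.18), so neither passed. WQ and control mice differed by 0.13 (95% CI -0.23 to 0.48).

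Pck1, Gpam and Gpihbp1 were positive in WQ against WD mice and negative in WD against control mice. On the probe sets used, Lpin1 and Dgat1 had the same signs, and Lpl, Cd36, Fabp4, Agpat2 and Dgat2 did not. The dimmer Fabp4 and Dgat1 probe sets had them too. So had a ratio of RNA ends on the same arrays. It is the log2 ratio of the signal at the 3' end to that at the 5' end of the array's control probe sets for actin and Gapdh. A higher ratio means relatively less signal from the 5' end, as shorter RNA gives, so it runs opposite to RNA length. The actin ratio averaged 1.14 ± 0.19 in WQ, 0.79 ± 0.12 in WD and 1.11 ± 0.29 in control mice (SD, n = 9 each). It was higher by 0.35 in WQ than in WD mice (exact two-sided permutation test, adjusted p = 7.4e-04 over 6 tests) and differed by -0.33 in WD against control mice (exact permutation adjusted p = 0.011). The Gapdh ratio was higher by 0.24 in WQ than in WD mice (exact permutation adjusted p = 0.014) and differed by -0.19 in WD against control mice (exact permutation adjusted p = 0.082). The part of RNA length in the differences of Pck1, Gpam, Gpihbp1, Lpin1, Dgat1 and the dimmer Fabp4 probe sets was not tested.

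Agpat2 (1428821_at), the acyltransferase of the next step, was higher in both groups on Western diet. The lowest, median and highest signals were 12.14, 12.43 and 12.75 in WQ mice, 11.92, 12.29 and 12.59 in WD mice and 11.50, 11.92 and 12.45 in control mice. All 9 WQ mice lay above the control median and 6 of 9 control mice lay below every WQ mouse, while 4 control mice lay below every WD mouse. Agpat2 rose by 0.44 in WQ against control mice, a fold of 1.36 (SE 0.11, 95% CI 0.22 to 0.66, limma adjusted p = 0.015), and by 0.32 in WD against control mice, a fold of 1.24 (SE 0.11, 95% CI 0.09 to 0.54, adjusted p = 0.043). WQ and WD mice differed by 0.13 (95% CI -0.10 to 0.35, adjusted p = 0.69). Adjusted over 45037 probe sets, as for the dimmer probe sets of other genes, the limma p was 0.018 in WQ and 0.053 in WD against control mice. The rise in WD mice lay close to the threshold. It was lost on leaving out any 1 of 12 arrays, control replicates 4 to 9 or WD replicates 2, 4, 6, 7, 8 and 9, with differences between 0.26 and 0.32 and adjusted p between 0.052 and 0.092. Without the 9 arrays high in testis, lymph node or smooth muscle markers, which left 4 control mice, both rises missed the threshold, at 0.29 in WQ (adjusted p = 0.22) and 0.23 in WD mice (adjusted p = 0.27). Without the 10 arrays high in liver markers they were 0.47 in WQ (adjusted p = 0.065) and 0.29 in WD mice (adjusted p = 0.14). Against control mice, the macrophage marker mean differed by 1.82 in WD and by 0.93 in WQ mice (exact permutation adjusted p = 0.0022 and 0.058). The mesothelium mean differed by -1.55 in WD and by -1.78 in WQ mice (exact permutation adjusted p = 0.058 and 0.0083). The part of these marker means in the rises of Agpat2 was not tested.

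Promoters are shown for Pck1, Gpam and Agpat2, the 3 genes with the greatest differences between diets on the probe sets used. RefSeq held promoter windows for 5 of the 10 genes on GRCm38.p6, each with 250 bases before and 50 after the transcript start. They were searched on both strands for the CCAAT box (CCAAT), the TATA box (TATAAA), the GC box (GGGCGG), the E box (CACGTG), the core of the cAMP response element (ACGTCA) and the nuclear receptor half-site (AGGTCA). None of these letter strings contains another, though matches can overlap. Capitals mark the matches.
Pck1: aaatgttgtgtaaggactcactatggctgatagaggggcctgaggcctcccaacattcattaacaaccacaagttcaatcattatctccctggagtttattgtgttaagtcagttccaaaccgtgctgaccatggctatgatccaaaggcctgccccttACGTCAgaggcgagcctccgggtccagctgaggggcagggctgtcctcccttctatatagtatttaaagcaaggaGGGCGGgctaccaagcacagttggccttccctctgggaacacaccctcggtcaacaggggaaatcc
Gpam: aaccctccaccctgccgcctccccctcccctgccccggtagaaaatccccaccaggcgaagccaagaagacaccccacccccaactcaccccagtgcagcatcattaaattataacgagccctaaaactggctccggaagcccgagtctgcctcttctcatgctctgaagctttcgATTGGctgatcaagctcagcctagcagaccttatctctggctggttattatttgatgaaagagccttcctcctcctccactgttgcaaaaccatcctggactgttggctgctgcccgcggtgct
Agpat2: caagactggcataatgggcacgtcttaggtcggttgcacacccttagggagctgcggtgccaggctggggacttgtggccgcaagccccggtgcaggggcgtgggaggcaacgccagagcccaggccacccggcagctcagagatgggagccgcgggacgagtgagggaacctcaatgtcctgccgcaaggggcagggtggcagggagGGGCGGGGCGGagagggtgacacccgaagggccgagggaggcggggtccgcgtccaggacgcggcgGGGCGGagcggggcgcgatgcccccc
The Pck1 window (chr2:173152823-173153122, plus strand) held ACGTCA 91 bases before the start, letters found in 7.51% of 32851 mouse promoter windows of this length, and a GC box 16 bases before it. The first of the Gpam windows in the table (chr19:55127189-55127488, minus strand) held a CCAAT box on the opposite strand 74 bases before the start, as do 37.4% of windows on either strand. The second (chr19:55099428-55099727, minus strand), whose sequence is not shown, held AGGTCA 196 bases before its start, ACGTCA 32 bases before it and a GC box on the opposite strand 16 bases before it, and 16.3% of all windows held AGGTCA. The Agpat2 window (chr2:26604368-26604667, minus strand) held GC boxes 42 and 37 bases before the start, which overlap, and 1 more 24 bases after it, and 35.7% of all windows held at least 1. Such matches describe the letters only.

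Lpin1 (1426516_a_at), the phosphatase that makes diacylglycerol, had values of 11.60, 11.77 and 11.82 in WQ mice, of 11.37, 11.63 and 11.90 in WD mice and of 11.30, 11.65 and 12.16 in control mice. The ranges lay inside one another, widest in control mice, and the difference was 0.08 in WQ against WD mice (95% CI -0.11 to 0.28) and -0.06 in WD against control mice (95% CI -0.26 to 0.13).

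Dgat1 (1418295_s_at), an acyltransferase of the last step, had values of 10.96, 11.10 and 11.42 in WQ mice, of 10.71, 11.01 and 11.34 in WD mice and of 10.59, 11.08 and 11.82 in control mice. Control mice spanned both other diets, with 4 above every WD mouse and 2 below every WD mouse. The difference was 0.15 in WQ against WD mice (95% CI -0.12 to 0.42) and -0.15 in WD against control mice (95% CI -0.42 to 0.13). A much dimmer Dgat1 probe set (1445229_at) had deposited signals of 107 ± 26 in WQ, 82 ± 19 in WD and 145 ± 47 in control mice (SD, n = 9 each). It fell by 0.71 in WD against control mice (SE 0.19, adjusted p = 0.011 over 45037 probe sets). Without the 9 arrays high in testis, lymph node or smooth muscle markers, the brighter Dgat1 probe set and Gpihbp1 were also lower in WD than in control mice (log2 fold changes -0.39 and -0.38, adjusted p = 0.019 and 0.040).

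Dgat2 (1422678_at), the other enzyme of the last step, had values of 12.52, 12.75 and 12.82 in WQ mice, of 12.66, 12.72 and 12.89 in WD mice and of 12.23, 12.68 and 12.84 in control mice. The diets overlapped, with control replicate 4 far below the rest, and the differences were -0.02 in WQ against WD mice (95% CI -0.16 to 0.11) and 0.08 in WD against control mice (95% CI -0.05 to 0.22).

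**Figure D3:**
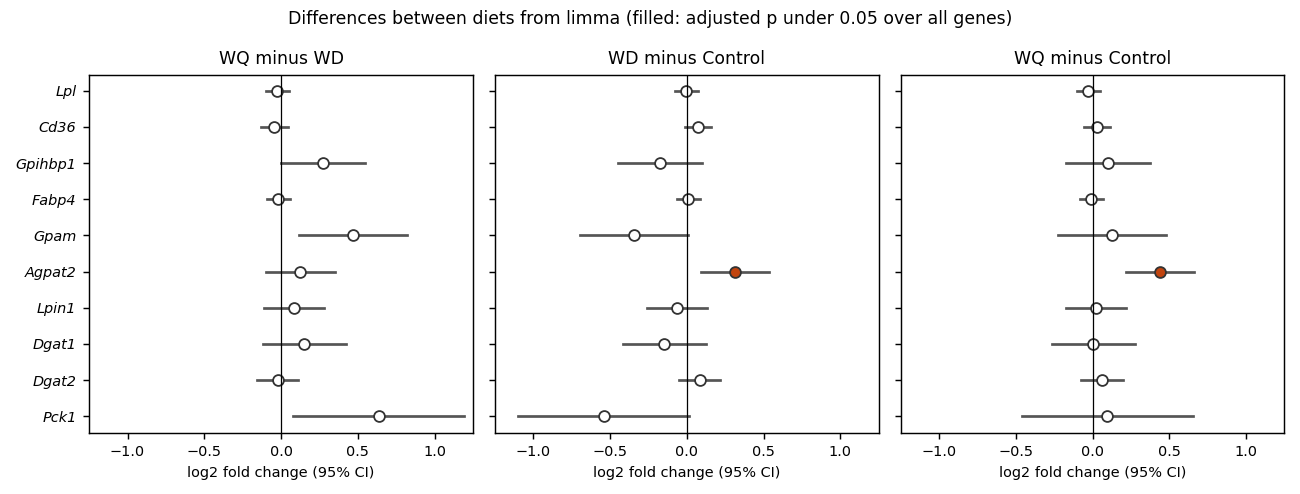
Log2 fold change with its 95% CI (x axis) of the 10 genes (y axis) in WQ minus WD, WD minus Control and WQ minus Control mice, from limma with n = 9 per diet; filled points passed the adjusted threshold. Only Agpat2 is filled, at 0.32 and 0.44 against control mice, and the intervals of Gpihbp1, Gpam and Pck1 in WQ minus WD lie above 0 without passing the adjusted test.

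The other genes of the pathway were taken from lists by role. Of 35 measured, 11 were higher and 4 lower in WD than in control mice, against 11.3% and 6.44% of all genes, and 5 were higher and 1 lower in WQ than in control mice, against 5.00% and 1.65%. In WQ against WD mice 0 passed by limma in either direction, while 8 of the 35 reached an unadjusted p under 0.05, as did 2496 of all 18193 genes. That count depends on the processing. Under some alternative settings Lrp1, Fabp5, Sel1l, Agpat1 and Acsl5 passed there (lowest limma adjusted p = 0.0094, 0.016, 0.021, 0.026 and 0.026). None of these genes passed there on leaving out any 1 mouse. Without the 9 arrays high in testis, lymph node or smooth muscle markers, 7 of the 11 were still higher and 3 of the 4 still lower in WD than in control mice. Without the 10 arrays high in liver markers, 6 of the 11 and all 4 were. The rises of Angptl4, Fabp5, Agpat5 and Lpin2 in WD mice were lost in both cases, that of Apoc1 without the arrays high in liver markers and the fall of Agpat1 without the other 9 (adjusted p = 0.096). In WQ against control mice the rises of Angptl4 and Acsl5 were lost in both cases. Among 9 genes that control LPL or lipoprotein uptake, 5 rose and 1 fell in WD against control mice. Their median log2 fold change was 0.35, against -1.84e-05 over all genes. Apoc2, the cofactor that activates LPL, had values of 6.78, 7.47 and 8.09 (lowest, median and highest) in WQ mice, of 6.75, 7.48 and 9.25 in WD mice and of 5.91, 6.18 and 7.18 in control mice. It rose by 1.46 in WD against control mice (SE 0.26, adjusted p = 2.3e-04) and by 1.18 in WQ against control mice (adjusted p = 0.0072), which was 1.00 and missed the threshold without the 9 arrays high in testis, lymph node or smooth muscle markers (adjusted p = 0.14). Apoc2 was highest on WD replicate 4, the array highest in liver markers, and without the 10 arrays high in those markers the rise in WD mice was 0.98 (adjusted p = 0.0015). Sel1l, which helps LPL mature in the endoplasmic reticulum, rose by 0.36 (adjusted p = 3.7e-04), and every WD mouse, at 9.984 to 10.30, lay above every control mouse, at 9.30 to 9.981. Lrp1, a receptor for lipoprotein remnants, rose by 0.63 in WD against control mice (adjusted p = 3.9e-04) and differed by -0.39 in WQ against WD mice (adjusted p = 0.12). Angptl4, an inhibitor of LPL, rose by 0.35 in WD (adjusted p = 0.0099) and by 0.33 in WQ mice (adjusted p = 0.039) against control mice, and neither rise passed without either set of arrays. Apoc1 rose by 0.59 in WD mice (adjusted p = 0.0064), while Lmf1, a maturation factor of lipases, fell by 0.34 (adjusted p = 0.019).

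Of 10 measured genes of fatty acid transport, binding and activation, 3 rose and 0 fell in WD against control mice. Of all genes, 11.3% were higher and 6.44% lower there. The same 3 rose in WQ against control mice, where 5.00% of all genes were higher and 1.65% lower. Acsl3 and Acsl5 encode enzymes that activate fatty acids with coenzyme A. Acsl3 had values of 7.98, 8.27 and 9.07 in WQ mice, of 7.80, 8.27 and 8.57 in WD mice and of 6.82, 7.20 and 8.05 in control mice, and rose by 1.12 in WQ (adjusted p = 2.2e-04) and by 0.89 in WD mice (adjusted p = 4.3e-04) against control mice. Acsl5 rose by 0.27 in WQ (adjusted p = 0.039) and by 0.51 in WD mice (adjusted p = 8.3e-05). The rise of Acsl5 in WQ mice was lost on leaving out any 1 of 9 arrays, control replicates 4, 5, 6 and 9 or WQ replicates 1, 4, 7, 8 and 9 (adjusted p between 0.051 and 0.077). Fabp5, a fatty acid binding protein found in macrophages as well as adipocytes, had values of 13.16, 13.31 and 13.41 in WQ mice, of 13.03, 13.11 and 13.14 in WD mice and of 12.50, 12.87 and 13.06 in control mice. Every WQ mouse lay above every WD and every control mouse. Fabp5 rose by 0.45 in WQ (adjusted p = 6.0e-05) and by 0.25 in WD mice (adjusted p = 0.0046) against control mice, and differed by 0.21 in WQ against WD mice (adjusted p = 0.11). The rise of Fabp5 in WD mice missed the threshold without the arrays high in other tissues' markers (adjusted p = 0.083) or in liver markers (adjusted p = 0.058). Of 5 measured genes of glycerol 3-phosphate supply 0 passed in any comparison. In WD against control mice Gpd1l differed by -0.27 (adjusted p = 0.083; -0.39 and adjusted p = 1.5e-04 without control replicate 6), Pcx by -0.10, Aqp7, which encodes a glycerol channel, by 0.07, and Pck2, the mitochondrial relative of Pck1, by -0.05. Pcx, which encodes pyruvate carboxylase upstream of PCK1, differed by 0.25 in WQ against WD mice (adjusted p = 0.29).

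Among 11 further acyltransferases, lipins and seipin, 3 rose and 3 fell in WD against control mice, against 11.3% and 6.44% of all genes. Related enzymes moved in opposite directions. Agpat4 rose by 0.53 (adjusted p = 0.0021) and Agpat5 by 0.41 (adjusted p = 0.0042), whereas Agpat1 fell by 0.38 (adjusted p = 0.0021). Lpin2 rose by 0.32 (adjusted p = 0.024). Gpat4, an acyltransferase of the endoplasmic reticulum for the first step, had values of 6.66, 7.15 and 7.62 in WQ mice, of 6.46, 7.03 and 7.58 in WD mice and of 7.40, 7.75 and 9.58 in control mice. Gpat4 fell by 0.83 in WQ (adjusted p = 0.022) and by 0.93 in WD mice (adjusted p = 0.0033) against control mice. Its highest control value was on replicate 6, the array with testis transcripts, and without that mouse the fall in WD mice was 0.73 (log2 fold change -0.73, adjusted p = 0.0021). The fall in WQ mice missed the threshold without the 10 arrays high in liver markers, at -0.97 (adjusted p = 0.14). With the mean of all Gpat4 probe sets the falls were smaller and missed the threshold, at -0.62 in WQ (adjusted p = 0.17) and -0.49 in WD mice (adjusted p = 0.23). Mogat1, which makes diacylglycerol from monoacylglycerol, fell by 0.78 in WD against control mice (adjusted p = 0.014) and differed by 0.55 in WQ against WD mice (adjusted p = 0.25). The macrophage marker mean, given above, was higher in WD than in control mice alongside all these changes, and its part in them was not tested. The actin ratio of RNA ends, also given above, was lower in WD than in control mice, and its part was not tested either.

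**Figure D4:**
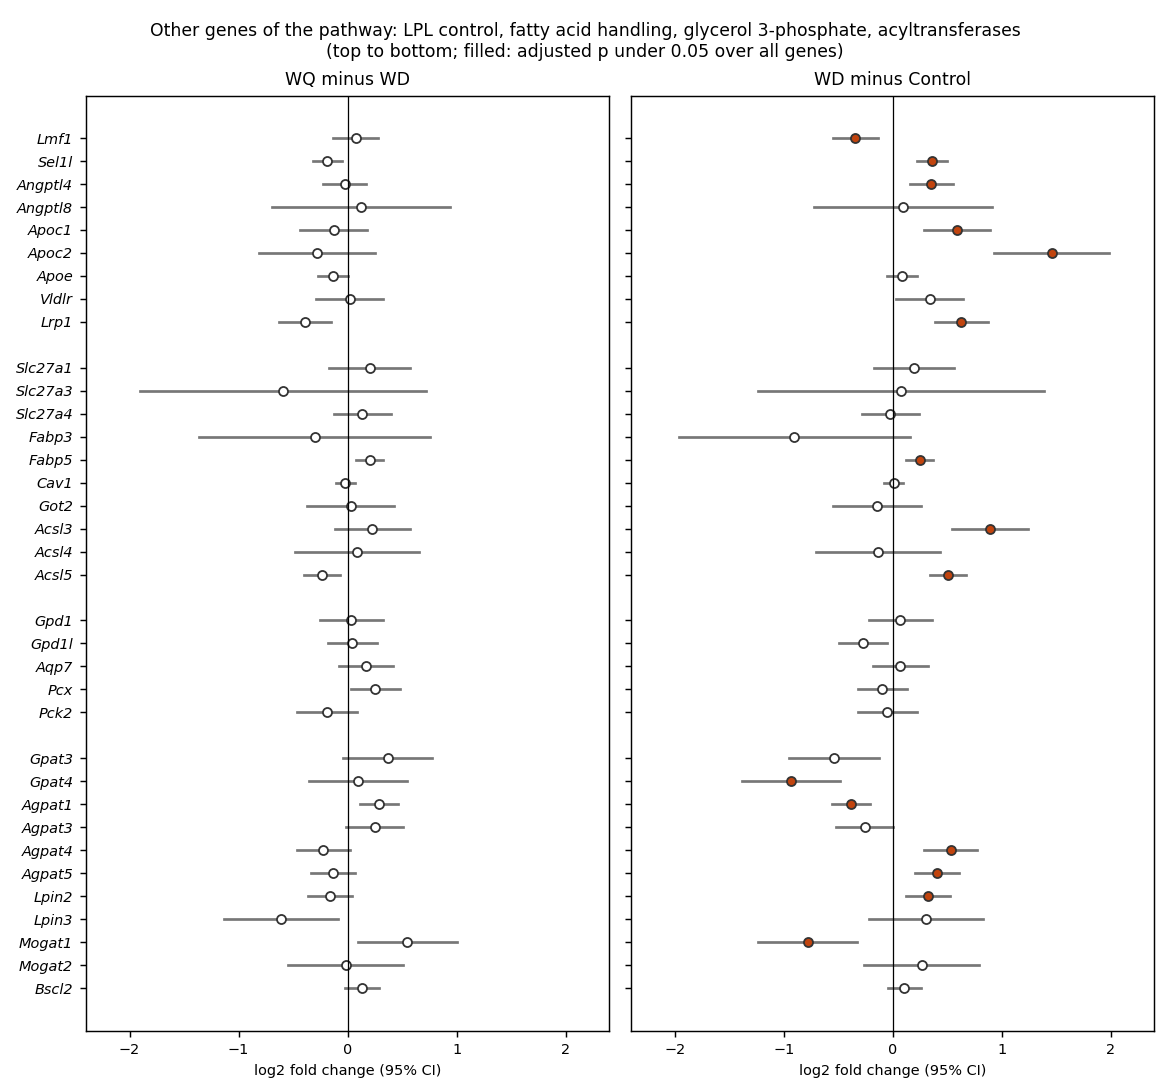
Log2 fold change with its 95% CI (x axis) of 35 other pathway genes (y axis, by role) in WQ minus WD and in WD minus Control mice, n = 9 per diet; filled points passed limma's adjusted threshold. In WD minus Control 11 genes are filled to the right of 0 and 4 to the left, and none is filled in WQ minus WD.

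Within diets, some of the 10 genes varied with the marker means of a cell type from mouse to mouse. Such relations were not computed for other genes, so the share of all genes that would pass is not known. Of the 9 control arrays, 5 were high in testis, lymph node or smooth muscle markers. Replicate 4, which had the lowest adipocyte mean of the control mice, was among them. The part of tissue content in the relations was not tested. Over 60 relations (10 genes, 2 marker means, 3 diets), 6 passed after adjustment by Pearson's r and 1 also by Spearman's rho. Dgat1 followed the adipocyte mean in control mice with r = 0.94 (exact two-sided permutation adjusted p = 0.013, n = 9) and rho = 0.95 (exact permutation adjusted p = 0.021), with r = 0.99 once the 2 mice farthest from the median marker mean were left out, and r = 0.92 without control replicate 6. In WD mice Dgat1 had r = 0.91 (exact permutation adjusted p = 0.013) and rho = 0.82 (exact permutation adjusted p = 0.12), with r = 0.76 without the 2 farthest mice. In control mice Gpihbp1 followed the adipocyte mean with r = 0.88 (exact permutation adjusted p = 0.028; rho = 0.90, exact permutation adjusted p = 0.061) and Lpin1 with r = 0.84 (exact permutation adjusted p = 0.0497; rho = 0.83, exact permutation adjusted p = 0.12), and without the 2 farthest mice r was 0.90 for Gpihbp1 and 0.74 for Lpin1. Relations of Gpihbp1, a capillary gene, with the endothelial marker mean were not computed.

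With the macrophage mean the 2 relations that passed, each in 1 diet, ran the other way. Agpat2 had r = -0.91 in WQ mice (exact permutation adjusted p = 0.025, n = 9) and rho = -0.75 (exact permutation adjusted p = 0.14), with r = -0.80 without the 2 farthest mice, and r = -0.79 in WD mice (exact permutation adjusted p = 0.093). In control mice the sign was positive and missed the threshold, with r = 0.62 (exact permutation adjusted p = 0.21) and rho = 0.60 (exact permutation adjusted p = 0.26), and r = 0.77 without the 2 farthest mice. Across diets both Agpat2 and the macrophage mean were higher in WD than in control mice. Dgat2 had r = -0.87 in WD mice (exact permutation adjusted p = 0.043) and rho = -0.80 (exact permutation adjusted p = 0.12), with r = -0.88 without the 2 farthest mice. It had r = -0.40 in WQ mice (exact permutation adjusted p = 0.43) and rho = -0.37 (exact permutation adjusted p = 0.49), with r = -0.85 without the 2 farthest mice. In control mice it had r = 0.54 (exact permutation adjusted p = 0.27) and rho = 0.62 (exact permutation adjusted p = 0.24), with r = 0.48 without the 2 farthest mice. All signals of a mouse come from 1 array and share its scaling.

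**Figure D5:**
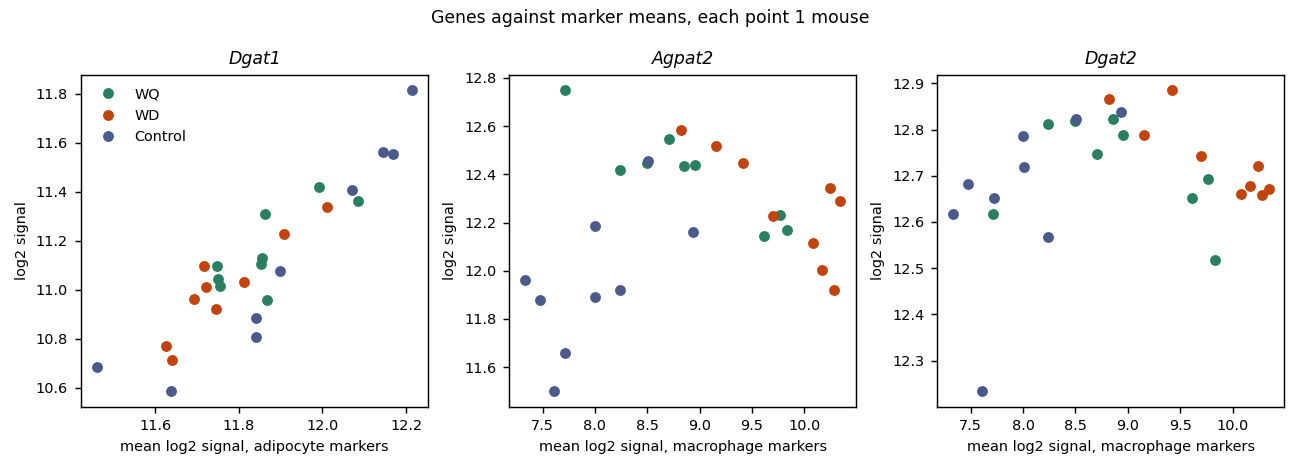
Log2 signal (y axis) of Dgat1, Agpat2 and Dgat2 against the mean log2 signal of adipocyte or macrophage markers (x axis), 1 point per mouse, coloured by WQ, WD and Control diet. Dgat1 rises with the adipocyte mean within control mice (r = 0.94) and WD mice (r = 0.91), and Agpat2 falls with the macrophage mean within WQ mice (r = -0.91).

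Over all 27 arrays, after each diet's mean was removed, the 45 pairs among the 10 genes had correlations between -0.37 (Agpat2 with Pck1) and 0.79 (Gpihbp1 with Dgat1), with a median of 0.16. Lpin1 with Dgat1 had 0.78 and Gpam with Dgat1 0.68. Of 9086 genes above the median mean signal, those most like each member by this measure were Ptprb (0.95) and Adgrl4 (0.93) for Gpihbp1, Ctdspl (0.91) and F3 (0.91) for Dgat1, Osbpl11 (0.88) and Dgkd (0.86) for Lpin1, and Scn7a (0.87) and Stard7 (0.86) for Gpam. For Dgat2 they were Acyp2 (0.87) and Sucnr1 (0.84), for Pck1 Slc43a1 (0.84) and Pdzd2 (0.84), and for Agpat2 Slc25a10 (0.83) and Gnb5 (0.82). Lpl, Cd36 and Fabp4, the 3 near the top of the array, had lower best values, with Znfx1 (0.65), Lrrk2 (0.75) and Dnmt1 (0.58). These are descriptions over 27 arrays that share scaling and tissue content.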

How the data were processed

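EAT RNA of 27 mice (9 per diet) was hybridised to Affymetrix mouse genome arrays. The authors deposited Microarray Suite signals, intensity values on a linear scale with no scaling between arrays (array medians of 25.2 to 54.4), 1 per probe set. Of 45101 probe sets, 64 controls were set apart, 34945 matched 1 gene, 932 matched several and 9160 were unnamed. GEO's extraction text names liver whereas the study's methods name EAT. Signals were quantile-normalized, floored at 1 (5.34% of values lay below) and taken as log2, and the brightest probe set stood for each of 18193 genes. Diets were compared with limma 3.58.1 (R 4.3.3; 1 mean per diet, variance trend, Benjamini-Hochberg adjustment over all genes), tested on simulated data first. Means of markers were compared by exact permutation. The genes, lists and tests were chosen with earlier results of these data known. All 10 genes were named, and of each pathway list the 3 genes with the smallest p in WD against control mice and the 2 in WQ against WD mice; Angptl4, Apoc1, Lmf1, Agpat5 and Lpin2 were named after their values were seen. Same-numbered mice did not deviate together, so numbers were not used as pairs. The number of arrays limits the precision. Plots used matplotlib 3.10.9 under Python 3.11.15.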

Additional observations from a re-analysis of the deposited data

Results flagged for a closer look

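In groups of 9 mice, a highest or lowest value that stood far apart from the other 8 was marked. Of 105 groups checked 14 held such a value, 3 of them among the 30 groups of the 10 genes, and chance alone marks about 1 in 20 groups. Among the 10 genes, Fabp4 was lowest on WQ replicate 2 (13.71 on the log2 scale) and on WD replicate 4 (13.79), both on the probe set that sits at the top of the array, and Dgat2 was lowest on control replicate 4 (12.23). Among the other pathway genes, Sel1l was lowest on WQ replicate 3 (9.67), highest on WD replicate 1 (10.30) and lowest on control replicate 6 (9.30). Control replicate 6, the array with testis transcripts, also had the lowest Gpd1l (8.15) and the highest Gpat4 (9.58) of its group. Pcx was highest on WQ replicate 3 (12.26), Aqp7 lowest on WD replicate 5 (9.75) and Apoc2 highest on control replicate 1 (7.18), an array high in liver markers. Of the marker means, that of testis was highest on control replicate 6 (12.72), that of lymph node on control replicate 3 (6.44) and that of brown adipocytes on WD replicate 3 (7.56).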

How the results depend on the processing

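Agpat2 was higher in WQ than in control mice under all scaling, floor and pseudocount alternatives (1 probe set measures it) and on leaving out any 1 mouse, and missed the threshold under the test of the study's methods (a one-way test over 3 diets, then Tukey's comparisons) and without the arrays high in markers of other tissues or of liver (0 of 10 genes higher in each). In WD against control mice the count of 1 higher became 0 with no scaling between arrays, a floor of 32, the mean of all probe sets, no variance trend, array weights, only the 2 diets compared, the methods' test, without control replicate 6, and without the arrays high in markers of other tissues or of liver. The replicate block also gave 0 (Agpat2 adjusted p = 0.080); same-numbered mice correlated between -0.33 and 0.18 (median -0.0045 over 27 pairs), so the numbers did not pair them. The count of 0 lower became 1 with the mean of all probe sets (Fabp4), array weights (Gpam) and the second brightest probe set (Dgat1, chosen after seeing the data), and 2 without the arrays high in markers of other tissues. In WQ against WD mice the count of 0 higher became 1 with array weights (Gpam, adjusted p = 0.034) and with only the 2 diets compared (Pck1, adjusted p = 0.030). Leaving out 1 mouse gave 0 to 1 higher and 0 to 1 lower in WD against control mice, and 0 and 1 higher in every case in WQ against WD and in WQ against control mice. The liver alternative was chosen after seeing the data, and the cause of these changes was not tested.

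Over all genes, the alternatives gave 1071 to 2325 higher (2047 as reported) and 408 to 1943 lower (1172) in WD against control mice, 0 to 766 higher (46) and 0 to 615 lower (14) in WQ against WD mice, and 135 to 1074 higher (910) and 23 to 667 lower (301) in WQ against control mice. In WQ against WD mice array weights gave 766 higher and 615 lower. The methods' test gave 474 and 530 there, and only the 2 diets compared gave 486 and 286. The mean of all probe sets, no variance trend and leaving out the arrays high in liver markers each gave 0 and 0. A shift of the medians in place of quantile normalization gave 2325 higher and 578 lower in WD against control mice.

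Differences that changed sign are listed here. As reported, Gpam was -0.34 in WD against control mice, and Apoc2 was -0.28 and Pck2 -0.19 in WQ against WD mice. The other differences listed were smaller as reported. With no scaling, Fabp4 became -0.12 in WD against control mice, and Lpl 0.031, Cd36 0.018, Fabp4 0.11 and Dgat2 0.018 in WQ against WD mice. With the median shift, WD against control mice gave Lpl 0.041, Fabp4 -0.0099, Lpin1 0.089, Dgat1 0.0063, Pcx 0.062 and Pck2 0.022, and WQ against WD mice Gpd1l -0.058. With the mean of all probe sets, Fabp4 was -0.40 in WD against control mice, WQ against WD mice gave Cd36 0.038, Fabp4 0.19, Gpd1l -0.035, Pck2 0.024 and Gpat4 -0.13, and WQ against control mice Dgat1 -0.20 and Pck1 -0.18. With array weights, Aqp7 was -0.028 in WD against control mice, Dgat2 0.0013 in WQ against WD mice, and Gpihbp1 -0.013, Lpin1 -0.024 and Dgat1 -0.12 in WQ against control mice. Without control replicate 6, Dgat1 was -0.065 in WQ against control mice. Without the arrays high in markers of other tissues, WD against control mice gave Lpl 0.0065 and Aqp7 -0.12, WQ against WD mice Gpd1l -0.019 and Gpat4 -0.074, and WQ against control mice Gpihbp1 -0.17, Gpam -0.10, Lpin1 -0.13, Dgat1 -0.31, Dgat2 -0.0072, Pck1 -0.11 and Pcx -0.12. Without the arrays high in liver markers, Pck2 was 0.084 in WD against control mice, Lpin1 -0.068 and Apoc2 0.19 in WQ against WD mice, and Fabp4 0.0097, Lpin1 -0.091, Dgat1 -0.037 and Pck1 -0.22 in WQ against control mice. With the second brightest probe set, WD against control mice gave Fabp4 -0.12, Gpam 0.20 and Lpin1 0.048, WQ against WD mice Fabp4 0.14, and WQ against control mice Fabp4 0.024, Dgat1 -0.40 and Pck1 -0.37. Leaving out 1 mouse gave ranges of -0.0092 to 0.0044 for Lpl and -0.13 to 0.012 for Pck2 in WD against control mice, of -0.036 to 0.0024 for Dgat2 in WQ against WD mice, and of -0.013 to 0.0054 for Fabp4, -0.030 to 0.078 for Lpin1, -0.065 to 0.089 for Dgat1 and -0.12 to 0.21 for Pck1 in WQ against control mice.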
